A study of Mus musculus with 40 samples.

Results

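Reactive astrocytes were followed through 10 genes in the brain of postnatal day 9 C57/Bl6 mice. The genes were Gfap, Vim and Nes, which encode intermediate filament proteins, Emp1, Cd44 and S1pr3, which encode membrane proteins linked to reactive astrocytes, and Aldh1l1, Gjb6, Fgfr3 and Aqp4, which are used as astrocyte markers. They were chosen by symbol, as genes with known roles in astrocytes, out of 19937 genes measured. The choice was made with earlier results of these data known. Each of the 10 was measured by 1 probe set, and all 10 lay above the lowest 25% of genes by mean signal.

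Astrocytes supply neurons with metabolites, take up transmitters and potassium, and wrap blood vessels with end feet. After infection or injury they enlarge and make more intermediate filament protein, a state called reactive astrogliosis. In the newborn brain, inflammation before a loss of oxygen and blood flow makes the injury worse, and astrocytes are among the cells that respond to both.

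The 40 arrays formed 8 groups of 5. A pair of groups came from the injured left hemisphere of pups given lipopolysaccharide (LPS, a bacterial cell wall component) and, 14 h later, hypoxia-ischaemia (HI), with removal 6 h after HI. The pups of one of them had received the peptide IDR-1018 (IDR, an innate defence regulator peptide), and those of the other vehicle, 4 h before LPS. Another pair of groups was the uninjured right hemisphere of the same design, with IDR and with vehicle. The other 4 groups were uninjured brain. These were LPS with IDR (IDR 4 h before LPS, removal 6 h after LPS), LPS (removal 6 h after LPS, with no mention of vehicle in the labels), IDR alone and Vehicle alone (both with removal 10 h after the dose). In the LPS/HI groups, removal was 20 h after LPS, so they differ from the LPS groups in time as well as in HI. From all 4 groups of uninjured brain they differ also in the part of the brain taken. Side of the brain and injury cannot be told apart. The labels do not say that each array is a separate animal, so p-values measure the spread between arrays, which may be technical.

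Values are the deposited log2 signals, normalised by robust multi-array averaging (RMA), and a difference of 1 is a factor of 2 in signal. The signal of one probe set cannot be set against that of another, so levels are compared within a gene. A gene was called where limma gave a Benjamini-Hochberg adjusted p under 0.05 over all 19937 genes, and errors of differences are standard errors. The tissue is a mixture of cells. Fewer cells of a type and less RNA per cell cannot be told apart, and the members are not made by astrocytes alone. The 22 astrocyte markers, 4 of them members, had array means between 10.2 and 10.6 in all groups. By mean signal these 22 stood from the 53.9 percentile of all genes, for Entpd2, to the 99.7 percentile, for Ndrg2. Such ranks also hold differences between probe sets.

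Sex-linked transcripts were unequal between groups. Xist, a noncoding RNA made from the inactive X of female cells, was high in 3 of 5 arrays of both IDR-treated LPS/HI groups, 4 of 5 arrays of both vehicle-treated LPS/HI groups, 2 of 5 of LPS with IDR, 5 of 5 of LPS, 1 of 5 of IDR and 2 of 5 of Vehicle. One array stood apart. Injured array 3 without peptide held both Xist and Y-linked signal, whereas uninjured array 3 held Xist alone. The other same-numbered hemispheres matched in sex-linked signal, 5 of 5 with IDR and 4 of 5 without. Results for the injured hemisphere without peptide are therefore also given without array 3.

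Of the 10 genes, chosen with earlier results of these data known, 8 were called in at least 1 of the 16 comparisons. The share of all genes called in at least 1 was not counted, so this number is a description. LPS raised Gjb6 and Fgfr3 and lowered Nes at 6 h, and left Gfap, Vim, Emp1, Cd44 and S1pr3 uncalled. Each of these calls against Vehicle was lost in 1 of 7 other settings. For Nes and Fgfr3 this was Xist as a covariate, and for Gjb6 the fit of all 8 groups. With IDR, the calls of Gjb6 and Fgfr3 after LPS were kept in all 7. In the injured hemisphere 6 h after HI, Emp1, S1pr3, Cd44 and Vim were higher than in the uninjured one and Fgfr3 was lower without peptide. Gfap was called in the injured hemisphere against Vehicle. Between hemispheres without peptide it was not called in the main fit, and was called in the fit blocked by array number and in that of all 8 groups. Aldh1l1 and Aqp4 passed the threshold in none of the 16 comparisons, and no effect of IDR was called for any of the 10.

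**Figure D1:**
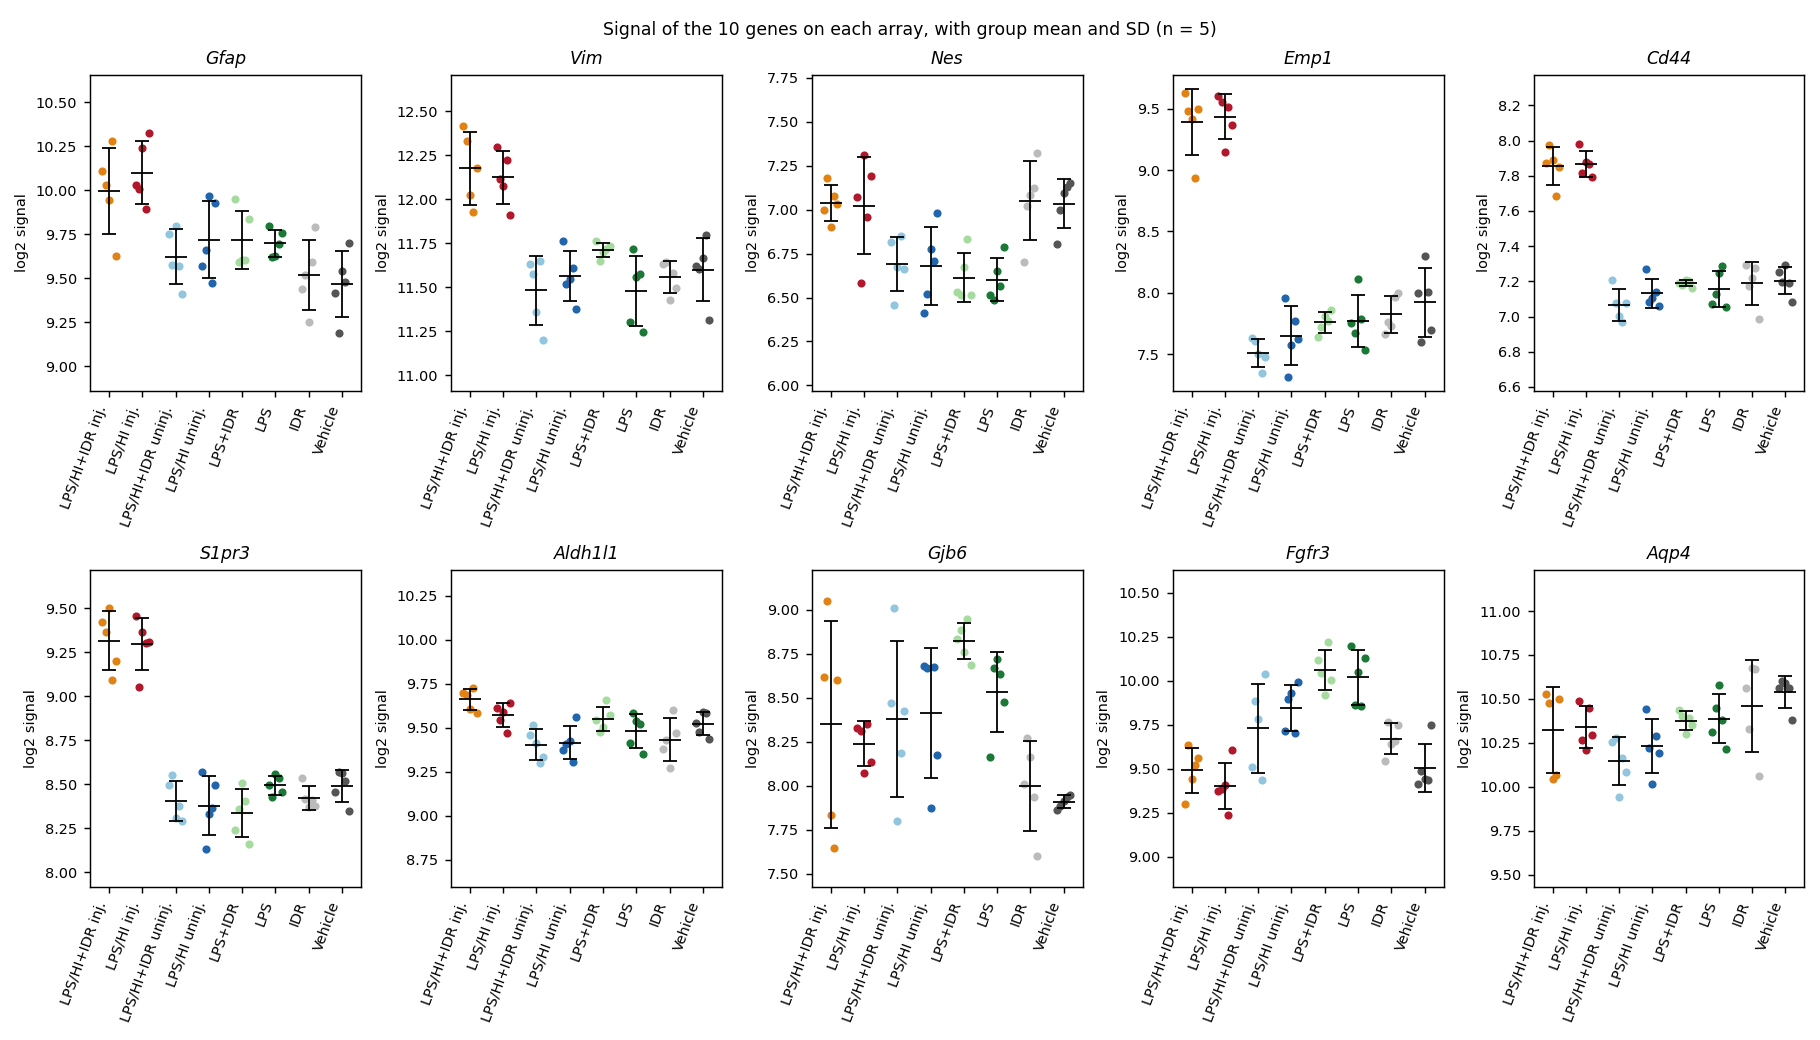
Log2 signal (y axis) of the 10 genes in each of the 40 arrays, by group (x axis), with each group's mean and SD (n = 5). The injured hemispheres stand above the other groups for Emp1, Cd44, S1pr3 and Vim, while the LPS groups stand highest for Gjb6 and Fgfr3.

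Emp1, which encodes epithelial membrane protein 1, a tetraspan membrane protein, had the largest difference of the 10. Its log2 signal in the injured hemisphere without peptide was 9.60, 9.55, 9.15, 9.51 and 9.37, against 7.96, 7.32, 7.58, 7.77 and 7.62 in the uninjured hemisphere. The lowest injured array lay above the highest uninjured array by more than a log2 unit. The difference was 1.79 ± 0.12 (adjusted p = 1.93e-06), a 3.45-fold higher signal in the injured hemisphere. With IDR the injured hemisphere had 9.63, 9.48, 9.42, 8.93 and 9.50, against 7.63, 7.61, 7.50, 7.35 and 7.48 in the uninjured one. The groups again did not overlap, and the difference was 1.88 ± 0.11 (adjusted p = 1.92e-06). Without injured array 3 the difference without peptide was 1.86 ± 0.11 (adjusted p = 3.62e-06).

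LPS gave no call on Emp1. Its mean was 7.77 ± 0.21 in LPS and 7.92 ± 0.28 in Vehicle (SD, n = 5 each), a difference of -0.15. The other 3 measured genes of its family, Emp2, Emp3 and Pmp22, were not called between hemispheres. Emp3 alone was higher in the injured hemisphere without peptide than in Vehicle, by 0.34 ± 0.09 (adjusted p = 0.0397), and by 0.32 without a call once injured array 3 was left out (adjusted p = 0.0727).

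Cd44, the receptor for the matrix polymer hyaluronan, showed a smaller difference with a narrow spread. In the injured hemisphere without peptide its log2 signal was 7.98, 7.82, 7.88, 7.87 and 7.79, against 7.27, 7.09, 7.11, 7.14 and 7.06 in the uninjured hemisphere. Every injured array stood above every uninjured array. The difference was 0.73 ± 0.06 (adjusted p = 4.37e-05), or 1.66-fold, and within the same-numbered arrays it ranged from 0.71 to 0.77. With IDR the mean was 7.85 ± 0.11 in the injured and 7.07 ± 0.09 in the uninjured hemisphere, a difference of 0.79 ± 0.07 (adjusted p = 0.000105). Without injured array 3 the difference without peptide was 0.73 ± 0.07 (adjusted p = 0.000183).

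S1pr3, a receptor for the signalling lipid sphingosine 1-phosphate, was also higher after injury. Its log2 signal was 9.46, 9.06, 9.36, 9.30 and 9.31 in the injured hemisphere without peptide, against 8.57, 8.13, 8.33, 8.36 and 8.50 in the uninjured one. The 2 groups did not overlap. The difference was 0.92 ± 0.09 (adjusted p = 0.000161), or 1.89-fold, and 0.90 ± 0.10 without injured array 3 (adjusted p = 0.000615). With IDR it was 0.91 ± 0.09 (adjusted p = 0.000134), between means of 9.32 ± 0.17 in the injured and 8.41 ± 0.12 in the uninjured hemisphere.

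The promoters of Emp1, Cd44, S1pr3 and Vim are shown because these genes rose together between hemispheres. Each sequence is the 250 bases before a transcription start in RefSeq genes of assembly GRCm38.p6. Used were 11 promoters for 9 of the 10 members. Entries on the chromosome of Aqp4 were left out, so no Aqp4 promoter is described. Emp1 lies on the plus strand at chr6:135362681-135362930, S1pr3 on the plus strand at chr13:51408368-51408617, Vim on the plus strand at chr2:13574061-13574310, and Cd44 on the minus strand at chr2:102901666-102901915. Capitals mark matches to the motifs searched on both strands.
Emp1: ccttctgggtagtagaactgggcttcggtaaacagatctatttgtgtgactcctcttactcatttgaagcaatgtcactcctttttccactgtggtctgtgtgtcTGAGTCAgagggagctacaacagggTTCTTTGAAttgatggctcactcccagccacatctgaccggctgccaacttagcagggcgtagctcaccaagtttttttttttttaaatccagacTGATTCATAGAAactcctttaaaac
Cd44: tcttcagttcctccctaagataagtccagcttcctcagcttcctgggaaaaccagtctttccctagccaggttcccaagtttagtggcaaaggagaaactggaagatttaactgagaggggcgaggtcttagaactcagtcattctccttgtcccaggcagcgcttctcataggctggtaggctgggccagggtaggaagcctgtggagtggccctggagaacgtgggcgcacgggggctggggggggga
S1pr3: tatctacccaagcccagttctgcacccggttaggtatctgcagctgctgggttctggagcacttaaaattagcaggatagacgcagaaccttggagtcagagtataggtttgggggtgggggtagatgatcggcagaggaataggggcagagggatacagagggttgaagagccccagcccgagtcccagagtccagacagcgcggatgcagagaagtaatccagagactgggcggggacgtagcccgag
Vim: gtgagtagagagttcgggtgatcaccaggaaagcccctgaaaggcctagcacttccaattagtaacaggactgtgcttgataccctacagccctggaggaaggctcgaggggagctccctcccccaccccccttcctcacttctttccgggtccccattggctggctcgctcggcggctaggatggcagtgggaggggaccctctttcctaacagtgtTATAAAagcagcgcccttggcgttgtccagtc

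The motifs searched were the STAT element TTCNNNGAA, the AP-1 element TGANTCA, the cyclic AMP element TGACGTCA, the TATA box TATAAA, the TEAD element GGAATG and the CArG box of serum response factor. The Emp1 window held 2 STAT matches, TTCTTTGAA at 120 to 112 bases and TTCATAGAA at 22 to 14 bases before the start. It held 2 AP-1 matches, TGAGTCA at 145 to 139 bases and TGATTCA at 25 to 19 bases before the start, and this last one overlapped the second STAT match. Of 32851 mouse promoters of the same length, 7.02% held a STAT match, 6.75% an AP-1 match and 0.451% both, and 0.317% held at least 2 STAT matches. Vim held TATAAA at 32 to 27 bases before its start, as did 12.4% of promoters somewhere in the window. The windows of Cd44 and S1pr3 held no match, nor did the second RefSeq promoter of Emp1 or those of Gfap, Nes, Aldh1l1, Gjb6 and Fgfr3. These letters are a description of the windows and no measurement of binding.

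The intermediate filament genes are taken next. Vim, whose product vimentin is made by immature and reactive astrocytes and by vascular cells, had log2 signals of 12.30, 12.12, 12.07, 12.22 and 11.91 in the injured hemisphere without peptide, against 11.76, 11.52, 11.55, 11.61 and 11.38 in the uninjured one. All injured arrays were higher. The difference was 0.56 ± 0.09 (adjusted p = 0.00369), or 1.48-fold, and 0.57 ± 0.10 without injured array 3 (adjusted p = 0.00716). With IDR, Vim differed by 0.69 ± 0.11 (adjusted p = 0.006), with means of 12.18 ± 0.21 in the injured and 11.48 ± 0.20 in the uninjured hemisphere.

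Gfap, the filament protein by which reactive astrocytes are usually stained, had 10.03, 10.01, 10.24, 9.90 and 10.33 in the injured hemisphere without peptide, against 9.57, 9.66, 9.97, 9.47 and 9.93 in the uninjured hemisphere. The ranges overlapped, yet each injured array was higher than the uninjured array of its number, by 0.28 to 0.46. The difference was 0.38 ± 0.11 and was not called (adjusted p = 0.0864). In the fit with the array number as a block it was 0.38 ± 0.05 and was called (adjusted p = 0.00247). It was also called without uninjured array 3, at 0.44 (adjusted p = 0.0465), and not without injured array 3, at 0.35 ± 0.12 (adjusted p = 0.15). With IDR the difference was again 0.38 and not called (adjusted p = 0.104), and without injured array 5 it was 0.47 and called (adjusted p = 0.0333).

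Every one of those injured arrays stood above every Vehicle array, which had 9.42, 9.19, 9.54, 9.48 and 9.70. The difference from Vehicle was 0.63 ± 0.10 (adjusted p = 0.00138), or 1.55-fold, and 0.60 ± 0.11 without injured array 3 (adjusted p = 0.00426). The uninjured hemisphere lay between these groups, with a mean of 9.72 ± 0.22, 0.25 above that of Vehicle, and was not called. In the LPS group Gfap stood above Vehicle by 0.23 ± 0.08, also without a call (adjusted p = 0.501, unadjusted p by limma 0.0154). With IDR, the injured hemisphere had a mean of 10.00 ± 0.24 and IDR alone 9.52 ± 0.20. That difference of 0.48 ± 0.12 (adjusted p = 0.0337) had overlapping groups and lost its call in 8 of the 10 fits with 1 array left out, where its adjusted p reached 0.0878.

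Nes encodes nestin, a filament protein of neural progenitors and of reactive astrocytes and vessels. Its log2 signal was 6.51, 6.48, 6.65, 6.56 and 6.79 in LPS, against 6.80, 7.00, 7.09, 7.13 and 7.15 in Vehicle. Every LPS array was below every Vehicle array. Nes fell by 0.43 on the log2 scale (SE 0.08, adjusted p = 0.0156). The call was lost without LPS array 2 (adjusted p = 0.0568), Vehicle array 3 (adjusted p = 0.0506) or Vehicle array 4 (adjusted p = 0.0592), and with Xist as a covariate, where the difference was -0.30 (adjusted p = 0.472). After IDR, LPS gave a difference of -0.44 ± 0.10 that missed the threshold (adjusted p = 0.0511) and passed it in 6 of 7 other settings, and also without IDR array 1 (adjusted p = 0.00786) or LPS with IDR array 4 (adjusted p = 0.0343).

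In the LPS/HI groups, Nes in the injured hemisphere stood near the Vehicle level. Its mean was 7.02 ± 0.28 in the injured hemisphere without peptide, 6.68 ± 0.22 in the uninjured one and 7.03 ± 0.14 in Vehicle. The hemispheres differed by 0.34 ± 0.13 without a call (adjusted p = 0.223), while the fit blocked by number gave 0.34 ± 0.08 and a call (adjusted p = 0.0321). Without injured array 3 it was 0.27 ± 0.13 (adjusted p = 0.335). With IDR the difference was 0.34 ± 0.08 (adjusted p = 0.0438), which was lost in 8 of 10 fits that left out an array. Of 8 other filament and linker genes, Lmna, a nuclear lamin gene, was the one called, higher in the injured hemisphere without peptide by 0.41 ± 0.09 (adjusted p = 0.0239).

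Gjb6, Fgfr3, Aldh1l1 and Aqp4, which mark astrocytes also at rest, are taken last. Gjb6 encodes connexin 30, a gap junction protein that couples astrocytes late in postnatal development. Its log2 signal was 8.16, 8.67, 8.72, 8.63 and 8.47 in LPS, against 7.86, 7.88, 7.91, 7.94 and 7.95 in Vehicle. All LPS arrays were above all Vehicle arrays. The difference was 0.62 ± 0.09 (adjusted p = 0.00298), or 1.54-fold, and it was not called when all 8 groups shared 1 spread (adjusted p = 0.15). With IDR, LPS gave 8.84, 8.89, 8.76, 8.95 and 8.69, against 8.01, 8.27, 8.16, 7.94 and 7.60 in IDR alone. This difference of 0.83 ± 0.11 (adjusted p = 0.000769), or 1.77-fold, kept its call in all 7 other settings.

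The spread of Gjb6 was wide in 3 of the 4 LPS/HI groups. The SD was 0.59 in the injured and 0.44 in the uninjured hemisphere with IDR, 0.13 in the injured and 0.37 in the uninjured hemisphere without peptide, and 0.04 in Vehicle. Same-numbered hemispheres differed by -0.54 to 0.18 with IDR and by -0.36 to 0.20 without peptide, injured minus uninjured. With IDR, array 2 had 9.05 in the injured and 9.01 in the uninjured hemisphere, and array 3 had 7.83 in the injured and 7.80 in the uninjured one. With IDR, both hemispheres held arrays below and above the Vehicle range. The hemispheres differed by -0.17 ± 0.14 without peptide (adjusted p = 0.666), and by -0.13 ± 0.16 without injured array 3 (adjusted p = 0.747). Against Vehicle, Gjb6 was higher by 0.33 ± 0.07 in the injured hemisphere (adjusted p = 0.00768), a call lost when all groups shared 1 spread (adjusted p = 0.317). Without injured array 3 it was 0.37 ± 0.06 (adjusted p = 0.00299). In the uninjured hemisphere the difference was 0.50 and uncalled (adjusted p = 0.233), and 0.64 with a call without uninjured array 3 (adjusted p = 0.011). By order of means Gjb6 was highest in LPS with IDR, then in LPS, the uninjured hemispheres, the injured hemispheres, IDR and Vehicle, and the ranges of neighbours in this order overlapped.

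Fgfr3, a fibroblast growth factor (FGF) receptor of astrocytes and their precursors, rose after LPS and was lower after injury. Its log2 signal was 10.20, 9.86, 10.05, 9.86 and 10.13 in LPS, against 9.41, 9.49, 9.44, 9.44 and 9.75 in Vehicle. The groups did not overlap. The difference was 0.51 ± 0.09 (adjusted p = 0.00774), or 1.43-fold, and with Xist as a covariate it was 0.57 and uncalled (adjusted p = 0.0653). After IDR it was 0.39 ± 0.07 (adjusted p = 0.00749), with means of 10.06 ± 0.11 in LPS with IDR and 9.67 ± 0.09 in IDR alone.

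Between hemispheres without peptide, Fgfr3 was 9.37, 9.38, 9.41, 9.24 and 9.61 in the injured one, against 9.71, 9.89, 9.93, 9.70 and 9.99 in the uninjured one. Each injured array was below all uninjured arrays. Fgfr3 fell by 0.44 on the log2 scale (SE 0.08, adjusted p = 0.0111), and by 0.44 without injured array 3 (adjusted p = 0.0205). With IDR the difference was -0.24 ± 0.11 and was not called (adjusted p = 0.345), and the peptide's effect on the difference, 0.20 with a 95% half-width of 0.30, was not called either. Set against Vehicle, the injured hemisphere differed by -0.10, while the uninjured one differed by 0.34 without a call (adjusted p = 0.136), or 0.40 with one without Vehicle array 5 (adjusted p = 0.0352). By order of means Fgfr3 was highest in the LPS groups, then in the uninjured hemispheres, IDR, Vehicle and the injured hemispheres, and the ranges of neighbours in this order overlapped.

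**Figure D2:**
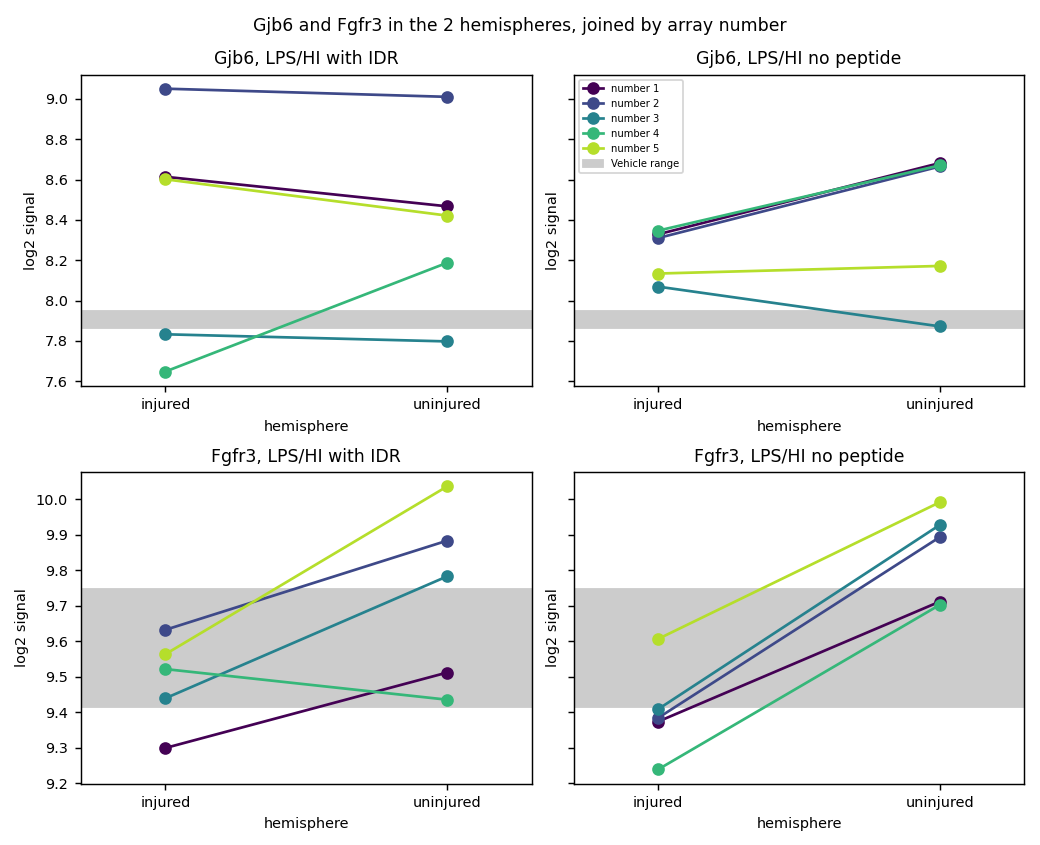
Log2 signal (y axis) of Gjb6 and Fgfr3 in the injured and the uninjured hemisphere (x axis), with a line joining arrays of 1 number, with IDR and without peptide, and the Vehicle range as a grey band. All 5 lines of Fgfr3 without peptide are lower on the injured side, while Gjb6 with IDR spreads over the numbers, below and above the Vehicle band, on both sides.

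Aldh1l1 encodes a folate enzyme used to identify astrocytes throughout the brain. Its means ran from 9.40 to 9.66 over the 8 groups, a span of 0.26. The highest mean was that of the injured hemisphere with IDR, whose arrays had 9.70, 9.69, 9.61, 9.73 and 9.58, against 9.46, 9.52, 9.41, 9.30 and 9.34 in the uninjured one. These did not overlap, but the difference of 0.26 ± 0.06 missed the threshold (adjusted p = 0.051), and it passed in 5 of 7 other settings and without uninjured array 2 (adjusted p = 0.0494). Without peptide the difference was 0.16 (adjusted p = 0.266), and 0.15 without injured array 3 (adjusted p = 0.293).

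Aqp4, the water channel of astrocyte end feet, had means from 10.15 to 10.54 over the groups. Its lowest mean was in the uninjured hemisphere with IDR and its highest in Vehicle. The injured hemisphere without peptide had 10.49, 10.27, 10.21, 10.45 and 10.29, against 10.44, 10.22, 10.01, 10.29 and 10.19 in the uninjured one. Those ranges overlapped, and the difference was 0.11 (adjusted p = 0.644), or 0.14 without injured array 3 (adjusted p = 0.477). Set against Vehicle, the uninjured hemisphere differed by -0.31 and the injured one by -0.20, with adjusted p-values of 0.194 and 0.112.

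**Figure D3:**
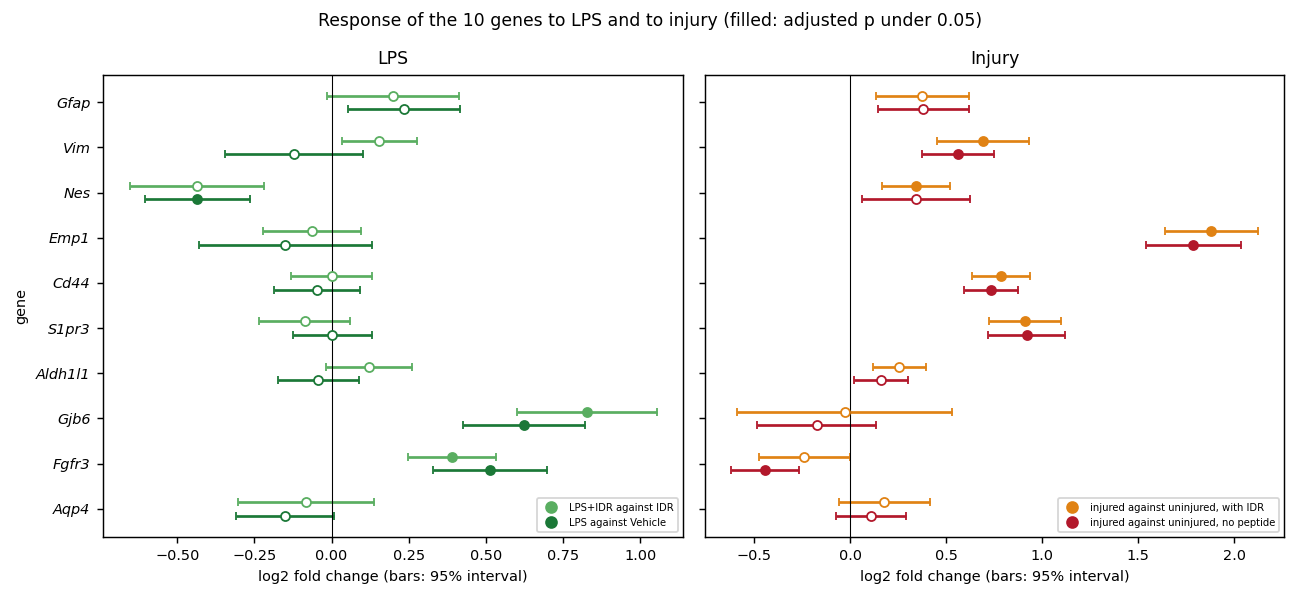
Log2 differences (x axis) of the 10 genes (y axis) with 95% confidence intervals, after LPS and between hemispheres, with and without IDR, filled where called. The LPS intervals of Gjb6 and Fgfr3 lie above 0 and those of Nes below it, and the injury intervals of Emp1, S1pr3, Cd44 and Vim lie above 0. The injury intervals of Gfap, Nes and Aldh1l1 also lie above 0 and those of Fgfr3 below it, called or not. So do, above 0 and uncalled, the intervals of Gfap after LPS without peptide and of Vim after LPS with IDR.

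Counted over the members, LPS against Vehicle gave 2 of 10 higher, where 0.732% of all genes were called higher, and 1 of 10 lower, where 0.1% were. The arrays of the 2 groups did not overlap for the same 3 members, 2 higher, where 1.19% of all genes were, and 1 lower, where 0.808% were. LPS with IDR against IDR alone gave 2 of 10 higher, where 1.16% of all genes were, and none lower, where 0.311% were. The median difference of the members was -0.04 after LPS, against -0.02 over all genes. Injury without peptide gave 4 of 10 higher, where 2.18% of all genes were, and 1 of 10 lower, where 0.813% were. The hemispheres did not overlap for these 5, 4 higher, where 3.42% of all genes were, and 1 lower, where 1.61% were. Injury with IDR gave 5 of 10 higher, where 1.8% of all genes were, and none lower, where 0.702% were. The median of the members between hemispheres was 0.36 without peptide, against 0.01 over all genes, and 0.36 with IDR, against 0.00. As the members were chosen with earlier results of these data known, these shares and those below are a description.

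Against uninjured brain, the injured hemisphere without peptide had 6 of 10 higher than in Vehicle, where 4.45% of all genes were, and none lower, where 3.89% were. With IDR, 5 of 10 were higher in the injured hemisphere than in IDR alone, where 3.52% of all genes were, and none lower, where 2.35% were. The uninjured hemisphere had none called by limma against Vehicle, where 0.436% of all genes were called, and 5 of 10 at an unadjusted p under 0.05, where 6.58% of all genes were. With IDR against IDR alone, none was called by limma, where 0.201% of all genes were, and 3 of 10 had an unadjusted p under 0.05, where 5.28% of all genes did. Emp1 was lower there in every array, by 0.31 ± 0.08 on the log2 scale, without a call (adjusted p = 0.256). Hemisphere groups share their Vehicle or IDR arrays.

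The uninjured hemisphere was also set against the LPS groups, which were taken earlier after LPS and differ in the part of the brain taken. Without peptide none of the 10 was called by limma, where 0.135% of all genes were, none had an unadjusted p under 0.05, where 4.25% of all genes did, and the differences ran from -0.17 to 0.08. With IDR none was called by limma, where 0.637% of all genes were, and 6 of 10 had an unadjusted p under 0.05, where 12.7% of all genes did. All of these were lower in the uninjured hemisphere. They were Fgfr3 at -0.33, Emp1 at -0.25, Aqp4 and Vim at -0.23 each, Aldh1l1 at -0.15, and Gjb6. For Emp1, Aqp4 and Vim every uninjured array lay below every array of LPS with IDR, with adjusted p-values of 0.14, 0.189 and 0.282. Gjb6 differed by -0.45 there, with overlapping groups and without a call (adjusted p = 0.282), and by -0.60 with one without uninjured array 2 (adjusted p = 0.0396).

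The effect of IDR-1018 was tested at 4 points of the study and passed the threshold at none for these genes. For IDR alone against Vehicle, none was called by limma, where 0% of all genes were, and 1 of 10, Fgfr3 at 0.17, had an unadjusted p under 0.05, where 1.61% of all genes did. For LPS with IDR against LPS, none was called, where 0% of all genes were, and 3 of 10 had an unadjusted p under 0.05, where 13.4% of all genes did. These were Gjb6 at 0.29, Vim at 0.23 and S1pr3 at -0.16, with adjusted p-values of 0.326, 0.326 and 0.349. In the injured and in the uninjured hemisphere none was called, where 0% of all genes were, and none had an unadjusted p under 0.05, where 1.39% and 1.89% of all genes did.

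The 95% intervals, taken gene by gene without adjustment, give the precision of the IDR differences between these arrays. In the injured hemisphere Emp1 differed by -0.04 with a 95% half-width of 0.27, Gfap by -0.10 with 0.25, Vim by 0.05 with 0.22 and Cd44 by -0.01 with 0.15. Gjb6 had the widest interval, at 0.11 with 0.46. With injured array 3 of the vehicle-treated pups left out, the estimates for Emp1, Gfap and Gjb6 were -0.11, -0.07 and 0.07, and none of the 10 was called. The effect of IDR on the injury difference was called by limma for none, where 0% of all genes were, and none had an unadjusted p under 0.05, where 1.81% did, with estimates from -0.01 to 0.20 and half-widths from 0.17 to 0.68. The effect of IDR on the LPS difference was called by limma for none, where 0.00502% of all genes were. Vim, at 0.28, alone had an unadjusted p under 0.05 (adjusted p = 0.86), where 4.38% of all genes did.

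Genes of the same pathways were taken from fixed lists, some of which hold members. Of 13 pan-reactive genes, which rise in reactive astrocytes after several insults and include 4 members, 5 rose after LPS and none fell. None of these 5 was a member, and 0.732% of all genes were called higher after LPS. Lcn2, an iron-binding acute phase protein, rose by 3.90 ± 0.22 (adjusted p = 6.96e-07), and Osmr, the oncostatin M receptor, by 0.69 ± 0.06 (adjusted p = 3.8e-05). Between hemispheres without peptide 6 of the 13 were higher, where 2.18% of all genes were. They were the members Vim, Cd44 and S1pr3, and beside them Timp1, Cxcl10, a chemokine, by 1.06 ± 0.11, and Osmr by 1.06 ± 0.12. The number was 5 without injured array 3, since Timp1, an inhibitor of matrix proteases, lost its call at 0.85 (adjusted p = 0.0631). The list's median difference was 0.49 after LPS and 0.56 after injury, against -0.02 and 0.01 over all genes. The 0.56 is the value of Vim, so this median does not stand apart from the members.

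Of 7 measured genes of the LPS-type reactive list, 3 rose after LPS and 1 was higher after injury. Iigp1, an interferon-induced GTPase, rose after LPS by 2.47 ± 0.15 (adjusted p = 1.04e-06). Of 13 genes of the ischaemia-type list, which holds Emp1, 1 rose after LPS and 9 were higher after injury. Beside Emp1 these included Cd14, a receptor for LPS, by 1.20 ± 0.15, and B3gnt5, a glycosyltransferase gene, by 0.96 ± 0.17. The list again had 9 called higher without injured array 3, with Ptgs2, the inducible cyclooxygenase gene, in place of Clcf1. The ischaemia-type median was -0.04 after LPS and 0.46 after injury. The pan-reactive, LPS-type and ischaemia-type lists were named in other studies from sorted astrocytes, and several of their genes are made by other cells too. The lists were chosen with earlier results of these data known, so these counts are a description.

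**Figure D4:**
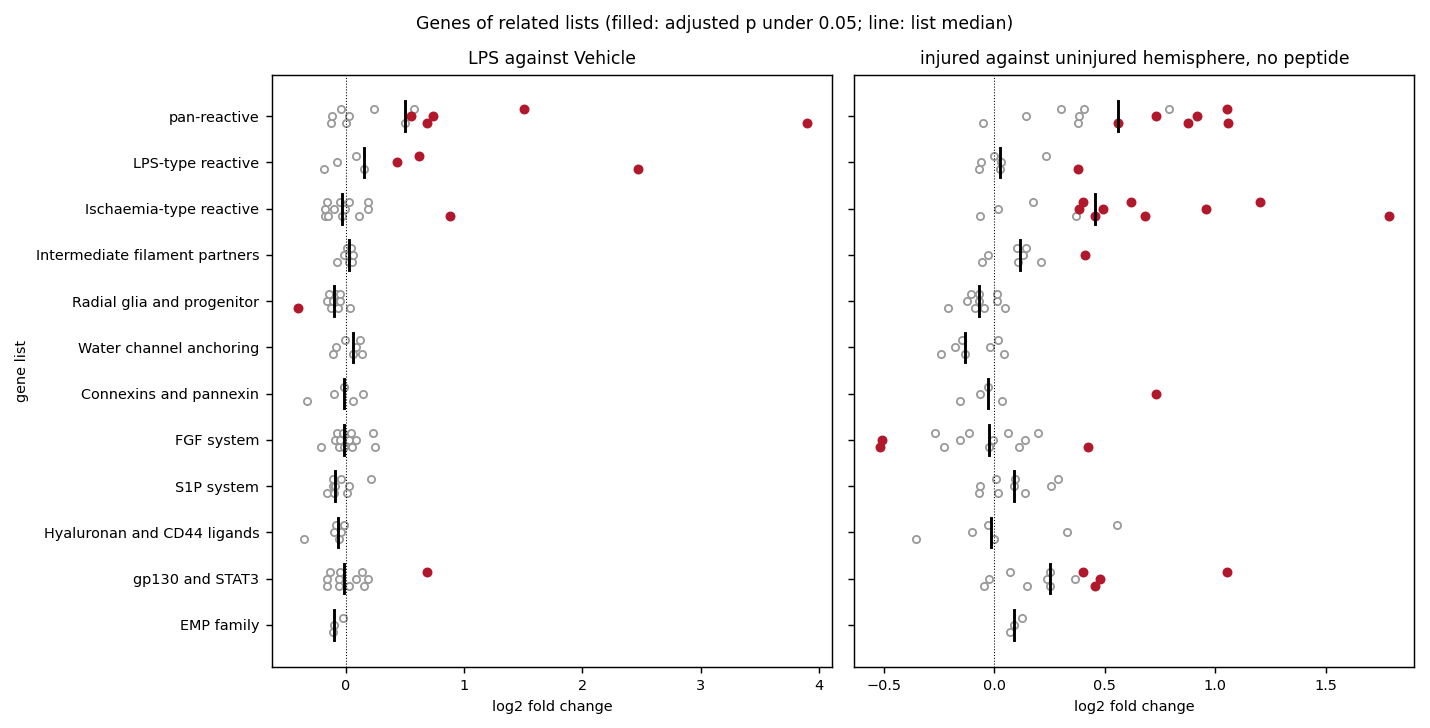
Log2 fold change (x axis) of each gene in the fixed lists (y axis) after LPS (left) and between hemispheres without peptide (right), with filled points called and a line at each list's median. The ischaemia-type list has 9 genes called higher after injury and 1 after LPS.

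Pathways around single members were less uniform. In the FGF list of 13 genes, Fgf2, the basic FGF, was higher after injury without peptide by 0.43 ± 0.09 (adjusted p = 0.019). Dusp6 and Etv5, which FGF signalling induces, were lower, at -0.51 ± 0.08 (adjusted p = 0.00486) and -0.52 ± 0.07 (adjusted p = 0.000801), and the other 10 were not called. Among 12 genes of cytokine signalling through gp130 and STAT3, 4 were higher and none lower. They were Osmr, Clcf1, Stat3 by 0.46 ± 0.07 (adjusted p = 0.00368) and Socs3, a feedback inhibitor, by 0.48 ± 0.12 (adjusted p = 0.0434). Of the 12, 3 were higher without injured array 3. Socs3 at 0.50 (adjusted p = 0.0578) and Clcf1 at 0.41 (adjusted p = 0.0545) were then uncalled, and Il6st, which encodes gp130, was called at 0.28 (adjusted p = 0.0457).

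Of 5 measured connexin and pannexin genes, Gjb2, which encodes connexin 26, was the one called after injury, at 0.73 ± 0.11 (adjusted p = 0.00305), and none was called after LPS. None of 9 genes of sphingosine 1-phosphate metabolism and signalling and none of 6 measured hyaluronan genes was called after injury without peptide, where Sgpl1, the sphingosine 1-phosphate lyase, was called at 0.31 once injured array 3 was left out (adjusted p = 0.0489). With IDR, Sgpl1 differed by 0.33 ± 0.08 (adjusted p = 0.0493) and Tnfaip6, a hyaluronan-binding protein, by 0.81 ± 0.12 (adjusted p = 0.00361). None of 7 genes that anchor or accompany Aqp4 at the end foot was called between hemispheres. Among 10 radial glia genes Tnc, an extracellular matrix protein, fell after LPS, at -0.41 ± 0.08 (adjusted p = 0.0304), and none was called between hemispheres.

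Markers of other cells were set beside the differences between hemispheres. Of 9 measured microglia markers, P2ry12 alone was lower after injury, at -0.45 ± 0.11 (adjusted p = 0.0471), and none was higher, and without injured array 3 none was called. The microglia array means were 7.65 to 7.91 in the injured and 7.65 to 7.97 in the uninjured hemisphere without peptide. Of 10 endothelial markers 1 was higher, with array means of 8.46 to 8.69 in the injured and 8.39 to 8.69 in the uninjured hemisphere. None of 6 mural and none of 6 meningeal markers was called. Of 6 infiltrating myeloid markers none was called between hemispheres, with array means of 5.13 to 5.41 in the injured and 5.10 to 5.26 in the uninjured hemisphere. Neuron markers had array means of 11.3 to 11.5 in the injured and 11.6 to 11.7 in the uninjured hemisphere, and of 8 only Neurod6 was called, at -0.73 ± 0.14. Of 9 measured oligodendrocyte lineage markers Pdgfra, a growth factor receptor of oligodendrocyte precursors, was lower, at -0.35 ± 0.09 (adjusted p = 0.0453), and uncalled without injured array 3 (adjusted p = 0.0631). Their array means were 8.97 to 9.36 in the injured and 8.77 to 9.53 in the uninjured hemisphere. Of the 22 astrocyte markers none was higher and 2 were lower, Fgfr3 and Slc7a10, an amino acid transporter, at -0.46 ± 0.07 (adjusted p = 0.00318). With IDR Slc7a10 was again lower, at -0.39 ± 0.09 (adjusted p = 0.0384). Against Vehicle, more markers were called in the injured hemisphere without peptide, among them Itgam of microglia at 0.89 ± 0.09 and P2ry12 at -0.61 ± 0.09. Without injured array 3, 3 of 9 microglia and 1 of 6 infiltrating myeloid markers were higher there. In that fit 1 microglia and 3 of 6 mural markers were lower. The part of these markers in the results was not tested. After LPS, 1 of 10 endothelial markers fell, Tek at -0.85 ± 0.14, 1 of 9 microglia markers fell, Gpr34 at -0.52 ± 0.10 (adjusted p = 0.0218), and 3 of 22 astrocyte markers rose, namely Gjb6, Fgfr3 and Agt, the angiotensinogen gene, at 0.62 ± 0.09.

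The members' patterns over the study were compared through their group means. Over the 8 groups, Emp1 correlated with Cd44 at 0.999 and with S1pr3 at 0.989, and Vim with Cd44 at 0.977. Gjb6 correlated with Fgfr3 at 0.74, while Nes ran against both, at -0.81 and -0.90. A set of 744 genes, members included, had means that spanned at least 0.5, and its non-members were searched for likeness. Genes with Rik, Gm or LOC names, Xist and symbols ending in y were left out of it. Those closest to Emp1 were Pdpn at 0.994 and Itga5 at 0.992, to Cd44 Ccl3 at 0.994, and to S1pr3 Atf3 at 0.997 and Il1b at 0.995. The closest to Vim was Fkbp7 at 0.995, to Gfap Gpr84 at 0.991, to Gjb6 Cdh19 at 0.988 and to Fgfr3 Hif3a at 0.961. These are Pearson correlations of 8 means that share arrays and the 2 large contrasts of the study, given as a description.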

How the data were processed

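Total RNA from brains of postnatal day 9 mice had been measured on 40 Affymetrix arrays. Per the submitters' processing notes, which give no version, the authors used RMA in the affy package, and the deposited values are log2 signals for 34760 probe sets. Because RMA normalises all arrays to one distribution, a change shared by all genes would not be seen. Values ran from 1.84 to 14.0 and array medians from 6.99 to 7.13. No 2 arrays were identical, and correlations between arrays were 0.986 to 0.998. The array annotation gave 1 symbol to 21640 probe sets, several to 1321 and none to 11799. Probe sets with 1 symbol were kept, with the highest-mean probe set for the 954 genes that had several.

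Groups were compared with limma 3.58.1 in R 4.3.3, each fit holding only the arrays compared. P-values were adjusted by Benjamini-Hochberg over 19937 genes, with calls under 0.05. The members, lists and tests were chosen with earlier results of these data known. All 10 members are named. From each list, up to 4 called genes per comparison were eligible by absolute fold change. The procedure was tested on simulated data. The number of arrays limits the precision. Other settings were 1 fit of all 8 groups, leaving out the 25% of genes with the lowest signal, averaging probe sets, subtracting array medians, Xist as a covariate, the replicate number as a block, and eBayes with trend and robust options, and each array was left out in turn. The array numbers were tested as pairs by correlating deviations from group means. For the hemispheres without peptide the correlations were 0.392 to 0.646, and 5 of 5 arrays were closest to their own number. For the injured hemisphere against Vehicle they were 0.116 to 0.443, and 3 of 5 were closest. All were above 0.1, the rule used, so the block was used there where it changed a call. Injured and Vehicle arrays had different treatments and cannot come from the same pups, so passing this rule does not show pairing. The labels do not state the pairing of hemispheres. Listed genes with no single-symbol probe set were not analysed here. Promoters came from RefSeq, assembly GRCm38.p6.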

Additional observations from a re-analysis of the deposited data

Results flagged for a closer look

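In 3 of 80 groups of 5 arrays (each of the 10 genes in each of 8 groups), 1 array stood apart by Dixon's criterion, which chance meets in about 1 of 20 groups. Fgfr3 was highest in Vehicle array 5, at 9.75, with a gap of 0.778 of the group's range. Aqp4 was lowest in the same array, at 10.4, with a gap of 0.806 of the range. S1pr3 was highest in IDR array 1, at 8.54, with a gap of 0.743 of the range. The critical value was 0.71.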

How the results depend on the processing

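Of the 26 calls on members, 20 were kept in all 7 other settings and in every fit that left out 1 array, and none was reversed. With Xist as a covariate, 1 member was called for LPS against Vehicle, Gjb6, and 3 without it. The count of members called ran from 0 to 1 over the fits that left out an array for the uninjured hemisphere against Vehicle, and from 0 to 1 for the uninjured hemisphere with IDR against LPS with IDR. For Gfap in the injured hemisphere with IDR against IDR alone, subtracting array medians gave 0.45 (adjusted p = 0.0503). For Nes between hemispheres with IDR, it gave 0.32 (adjusted p = 0.0718). With all 8 groups in 1 fit, Gfap was called between hemispheres without peptide (adjusted p = 0.0283) and with IDR (adjusted p = 0.0306), and Aldh1l1 in the injured hemisphere with IDR against IDR alone (adjusted p = 0.00684), as it was without IDR array 4 (adjusted p = 0.0391). The cause of these changes was not tested.

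With the replicate block, Gfap in the injured hemisphere with IDR against IDR alone was 0.48 (adjusted p = 0.105). In the hemispheres with IDR the same-numbered arrays did not pass the rule used (correlations 0.088 to 0.589, 3 of 5 closest to their own number). Their sex-linked signal matched in 5 of 5, so the rule does not settle whether they are pairs. There the block called Gfap at 0.38 (adjusted p = 0.0311) and Aldh1l1 at 0.26 (adjusted p = 0.0485). For LPS with IDR against IDR alone it called Nes at -0.44 (adjusted p = 0.0402). It changed no other call beyond those given for the hemispheres without peptide.

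The number of genes called among all tested moved by over 1.5 times in some settings. With Xist as a covariate it was 86 for LPS against Vehicle (166 otherwise), 1083 between hemispheres with IDR (498), 917 for the injured hemisphere against Vehicle (1663), 52 for the uninjured one against Vehicle (87) and 13 for it against LPS (27), and with IDR 21 for the uninjured hemisphere against IDR alone (40). With all 8 groups in 1 fit it was 1431 between hemispheres without peptide (596) and 1432 with IDR (498). That fit gave 69 for the uninjured hemisphere against LPS (27), and with IDR 1909 for the injured (1171) and 67 for the uninjured hemisphere (40) against IDR alone, and 251 for the uninjured hemisphere against LPS with IDR (127). With the replicate block it was 2032 between hemispheres without peptide (596), 894 with IDR (498) and 498 for the injured hemisphere with IDR against IDR alone (1171). Leaving out 1 array also moved it by over 1.5 times. The count ran from 285 to 641 between hemispheres without peptide (low without injured or uninjured array 1, 2 or 4) and from 230 to 515 with IDR (low without injured array 1, 2 or 5 or uninjured array 1, 3 or 5). For the injured hemisphere it ran from 964 to 1798 against Vehicle (low without Vehicle array 1, 3 or 4), and from 705 to 1196 with IDR against IDR alone (low without IDR array 1, 2, 3 or 4). For the uninjured hemisphere it ran from 51 to 95 against Vehicle (low without Vehicle array 4) and from 15 to 27 against LPS (low without LPS array 2 or 5 or uninjured array 4). With IDR the uninjured hemisphere gave 21 to 66 against IDR alone, past 1.5 times in 8 of 10 fits, and 59 to 160 against LPS with IDR (low without array 1, 2 or 5 of LPS with IDR or uninjured array 1, 3 or 5). The shares of all genes called move with these counts.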
